A study of Homo sapiens with 3 samples.

Results

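The SP1 summits of H1299 cells described here lie far from genes, in gene deserts and in the gene-free sequence around centromeres. A summit is the single base that a peak caller gives as the centre of a peak. A summit was taken where it lay outside every protein-coding gene span of RefSeq, more than 100 kb from the nearest one, and more than 1000 bases from either end of every lncRNA gene. Of 5570 SP1 summits, 607 met this rule, or 10.9% (95% Wilson interval 10.1 to 11.7). They are called gene-desert summits below.

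H1299 is an established human line of lung cancer cells, and all groups of the study are the same untreated line. CUT&RUN was done with an antibody to the transcription factor SP1, with an antibody to histone H3 acetylated at lysine 27 (H3K27ac) and with a control IgG, 1 library each. In CUT&RUN an antibody brings a nuclease to its target in the nucleus, and the DNA that is cut free is sequenced. Lists for SP1 and for H3K27ac were used. IgG was not analysed here, and whether the control antibody gives signal at these positions was not tested.

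SP1 is a zinc finger factor that binds GC-rich elements (GC boxes), many of them in promoters near the start of genes, where it helps to recruit the transcription machinery. H3K27ac marks active promoters and enhancers. Gene deserts are long stretches with few or no protein-coding genes, and some hold enhancers that act over long distances. Centromeres are built on tandem satellite repeats, and the short arms of the acrocentric chromosomes carry the arrays of ribosomal RNA genes. Such repeats have many nearly identical copies, so a short read from them often cannot be given 1 place in the genome, and the assembly can hold fewer copies than a cell does.

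The score that the authors' peak caller gave each summit is on a −log10 scale, of either p or q, which the lists leave unstated. It was read only within its own list, apart from the 2 scores of one place set side by side. Reads per library are unknown. Since each antibody had a single library, nothing was replicated and no p-value was computed. The Wilson intervals take in counting error alone, as if each summit were independent, which neighbouring ones are not. Of 10 lung and airway marker genes, 1 had an SP1 summit within 1000 bases of an end (NAPSA, an aspartic protease of alveolar cells, score 6.69). None of the 10 had an H3K27ac summit there, NKX2-1, SFTPB and SFTPC included, so the cell type could not be checked in this way.

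SP1 summits were sparse in the deserts. Sequence that meets the rule made up 31.9% of the assembly, or 984 Mb, and held 6.17 SP1 summits per 10 Mb. The rest of the assembly held 23.6 per 10 Mb. Lengths include bases that reads cannot be mapped to. By the same rule, 870 of 3201 H3K27ac summits were gene-desert summits, or 27.2%, at 8.84 per 10 Mb. This share is near the 31.9% of sequence that meets the rule. Only 150 of the 3201 lay within 1000 bases of a protein-coding gene end. The H3K27ac list thus covers few gene ends, which limits how often an SP1 summit there can have an H3K27ac summit near it. The median SP1 gene-desert summit lay 324 kb from a protein-coding gene (quartiles 175 and 596 kb), 192 of the 607 lay within 200 kb of one, and 62 lay more than 1 Mb away. Just inside the threshold were a summit on chromosome 11 at 114914227, 100525 bases from NXPE2, with a score of 4.07, and one on chromosome 22 at 22143818, 100968 bases from VPREB1, with 4.95. Just outside it were a summit on chromosome 7 at 98747098, 99392 bases from TMEM130, with 5.14, and one on chromosome 9 at 113776750, 99559 bases from ZNF618, with 4.71.

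Most gene-desert summits had low scores, while a few were among the very highest of the list. Their median score was 5.06 (quartiles 4.30 and 6.0), against 6.48 (4.90 and 9.45) for the other 4963 SP1 summits. Scores above 10 were reached by 32 of 607, or 5.27% (3.76 to 7.35), where 20.4% of all SP1 summits passed this score. In summits within 1000 bases of a protein-coding gene end the share was 34.5% (32.6 to 36.4), and in intergenic summits nearer than 100 kb to a gene it was 8.42% (6.86 to 10.3). Yet 7 of the 10 highest SP1 summits were gene-desert summits, as were 13 of the highest 50 and 13 of the highest 100.

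The list was then divided into 10 equal parts of 557 summits by score. Gene-desert summits made up 4.13% of the highest-scoring part (23 summits), 1.62% of the next (9) and 1.44% of the one after it (8). They made up 18.5% of the lowest-scoring part (103) and 20.3% of the part above that (113). Their share was thus lowest in the 2 parts just below the highest one, and greater above and below them. All 23 in the highest part had an H3K27ac summit within 500 bases, and none of the 103 in the lowest part did, which by the Wilson interval allows a share of up to 3.60%. How many of all 557 summits of each part had one was not counted. Over the whole list, 134 of 5570 SP1 summits did.

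**Figure D1:**
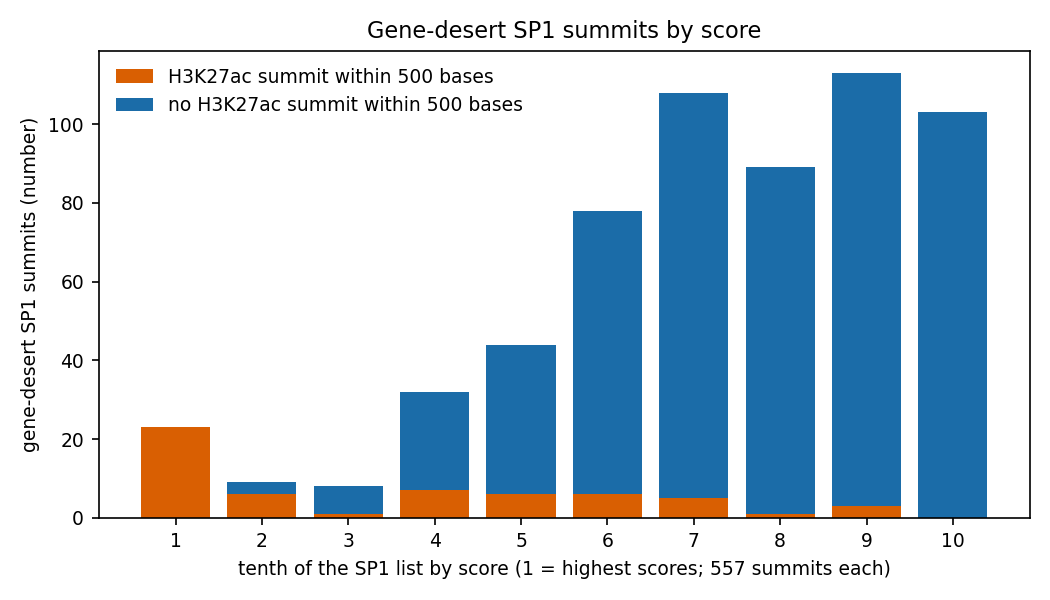
Number of gene-desert SP1 summits (vertical axis) in each of 10 equal parts of the SP1 list by score, from the highest scores at 1 to the lowest at 10, with 557 summits in each. The lower, orange part of a bar counts those with an H3K27ac summit within 500 bases, which are 23 of 23 in the highest part and 0 of 103 in the lowest.

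The 20 highest gene-desert summits lay in few places, beside centromeres or in other gene-free sequence, and each had an H3K27ac summit within 500 bases. The highest of the whole SP1 list was on chromosome 1 at 125183762, with a score of 268 and an H3K27ac summit 1 base away with a score of 275. LINC02798, a protein-coding gene in the table despite its name, was the nearest, at 3720633 bases. The next was on chromosome 16 at 46390716, with 226 for SP1 and 224 for H3K27ac at the same base and SHCBP1 as nearest gene at 187875 bases. These are also the first and the second summit of the H3K27ac list.

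Chromosome 17 held 5 of the 20 between 25920217 and 26885438, and their nearest gene was WSB1, which encodes a ubiquitin ligase adaptor. Their SP1 scores were 193, 133, 108, 40.2 and 37.3. The H3K27ac scores at the same places were 202, 153, 123, 31.8 and 50.3. Positions 26881402 and 26885438, with 193 and 40.2, stood 4037 bases apart, ends included, in 1 SP1 region.

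On chromosome 16 a further summit at 34588203 scored 107 for SP1 and 110 for H3K27ac. Chromosome 21 held 2 of the 20 on its short arm. The summit at 8234508 scored 105 for SP1 and 135 for H3K27ac, and the one at 8219943 scored 24.7 and 31.1. Position 8219943 lay 641 bases past the span of RNA45SN2, a gene for the precursor of the large ribosomal RNAs, and was the 1 gene-desert summit within 1000 bases of an rRNA gene.

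Chromosome 20 held 3 of the 20, at 28495466, 31068340 and 28843108. Their SP1 scores were 58.8, 41.5 and 24.6, and the H3K27ac scores 54.4, 53.0 and 29.2. DEFB115, a gene of the beta-defensin family of antimicrobial peptides, was the nearest to the second of them, at 189324 bases. Chromosome 10 also held 3, with 43.2 at 40556869, 16.5 at 38528697 and 15.4 at 38528311. The last of these lay 486 bases from its H3K27ac summit, the largest offset of any shared gene-desert summit.

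Chromosome 7 held 2 of the 20, with 22.1 at 60376135 and 15.8 at 60310875, and chromosome 6 held 1, with 22.5 at 61322993. Their nearest genes were ZNF716, which encodes a zinc finger protein, and KHDRBS2, which encodes an RNA-binding protein. The remaining one stood away from any centromere, on chromosome 13 at 109424204, 216199 bases from the unconventional myosin gene MYO16. It scored 49.4 for SP1 and 67.6 for H3K27ac, and only 3 gene-desert summits were called on chromosome 13 in all.

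H3K27ac summits lay within 500 bases of 58 gene-desert SP1 summits, or 9.56% (7.46 to 12.2), where 2.41% of all SP1 summits had one. The share was 2.48% (1.68 to 3.63) in intergenic summits nearer to genes, 2.16% (1.53 to 3.03) inside genes away from their ends and 0.773% (0.496 to 1.20) at gene ends. Gene-desert summits were 58 of the 134 shared SP1 summits, or 43.3%. H3K27ac regions held 55 gene-desert summits, or 9.06% (7.03 to 11.6), and 1.58% of all SP1 summits. They held 1 of the 2457 SP1 summits at gene ends. How peaks were chosen for these regions is not stated, so shares in them may depend on position by construction. Seen from the other list, 57 of 870 gene-desert H3K27ac summits had an SP1 summit within 500 bases, or 6.55% (5.09 to 8.39), where 4.15% of all H3K27ac summits had one. In that list the share was highest at gene ends, 18 of 150 or 12% (7.73 to 18.2), and it was 3.05% (2.11 to 4.40) in intergenic summits nearer to genes. The order of deserts and gene ends was thus not the same in both lists. The median H3K27ac score of the 57 was 12.1, against 4.90 for the other 813 in deserts. With 1 summit for each group of neighbours within 10 kb, 48 of 580 SP1 gene-desert summits were shared, or 8.28%.

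The distances were short. The median offset between the SP1 and the H3K27ac summit was 28 bases in the 58 gene-desert pairs, and 38 of them (65.5%) lay within 50 bases. In the other 76 shared SP1 summits the median offset was 88 bases, and 25 (32.9%) lay within 50. Gene-desert summits that were not shared had their nearest H3K27ac summit at a median of 230 kb, and only 9 of them lay between 500 and 2000 bases from one.

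Score and sharing went together in the deserts. Of the 32 gene-desert summits with a score above 10, 29 were shared, and of the 575 at or below it 29 were shared, or 5.04% (3.53 to 7.15). In the 925 intergenic summits nearer to genes with a score of at most 10 the share was 2.16% (1.40 to 3.32), or 20 summits. Of all 1010 such intergenic summits 25 were shared, although 85 scored above 10. Over the 4963 SP1 summits outside the deserts, 76 were shared and 1102 scored above 10. A high SP1 score thus did not go with sharing in the same way there. The 3 unshared ones above 10 were on chromosome 17 at 20801848 (13.3), on chromosome 7 at 60366720 (11.2) and on chromosome 8 at 83608577 (10.4). Their nearest H3K27ac summits were 51472, 9421 and 3650 bases away, in that order. These 3 were chosen after their values were seen.

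Over the 58 pairs the 2 scores had a Spearman correlation of 0.83, against 0.35 over the 76 other shared summits. Within pairs whose SP1 score was above 10 it was 0.95 (n = 29), and in the rest 0.28 (n = 29). The points of a pair share their position and with it sequence and copy number, and the difference between these correlations was not tested.

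**Figure D2:**
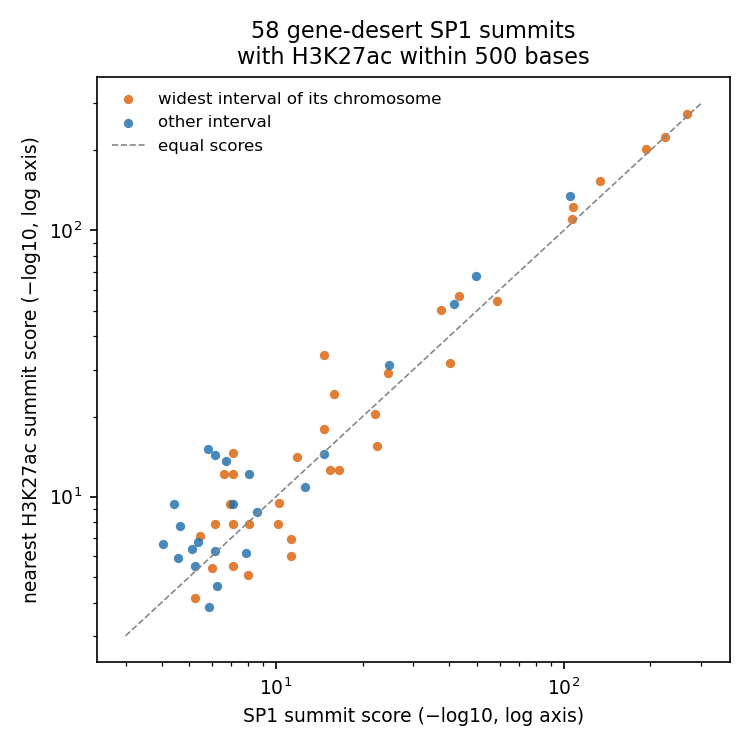
SP1 score (horizontal, log axis) and score of the nearest H3K27ac summit (vertical, log axis) for the 58 gene-desert SP1 summits with an H3K27ac summit within 500 bases; the dashed line marks equal scores. Orange points lie in the widest gene-free interval of their chromosome (35) and blue points elsewhere (23), and the points of highest score lie near the line, up to 268 and 275.

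To set the summits against the position of centromeres, the widest stretch without a protein-coding gene was taken on each chromosome, a split chosen after the data were seen. On most chromosomes this interval spans the centromere, but on 2, 4, 21 and Y it lies elsewhere. Of the 607 summits, 78 (12.9%, 10.4 to 15.7) lay in these intervals, and 8 of the 78 were on those 4 chromosomes. The intervals held 22.8% of all sequence that meets the rule. SP1 summits were at 3.48 per 10 Mb in them and at 6.97 per 10 Mb in other desert sequence. How many bases in each part reads cannot be mapped to was not measured, so these densities cannot be ranked. By count, most gene-desert summits were outside these intervals, while most of the high scores were inside them.

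In the widest intervals the median score of the 78 summits was 6.85 (quartiles 5.24 and 11.2), and 24 of them (30.8%, 21.6 to 41.7) were above 10. The other 529 had a median of 4.90 (4.20 and 5.66), and 8 (1.51%, 0.768 to 2.96) were above 10. H3K27ac was shared by 35 of the 78 (44.9%, 34.3 to 55.9) and by 23 of the 529 (4.35%, 2.91 to 6.44). Without chromosome 21 as well, 18 of 519 were shared (3.47%, 2.20 to 5.42). Both intervals overlap that of intergenic summits nearer to genes, 1.68 to 3.63. The 4 summits above 10 that remain then are those on chromosomes 13, 20 (31068340), 17 (20801848) and 8 named above. Neither the 529 nor the 519 are free of sequence near centromeres. Their shared summits include 3 on chromosome 20 between LOC124904970 and DEFB115, beside the widest interval there. They also include 3 on chromosome 9 and 1 on chromosome 15, near the widest intervals of these chromosomes.

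**Figure D3:**
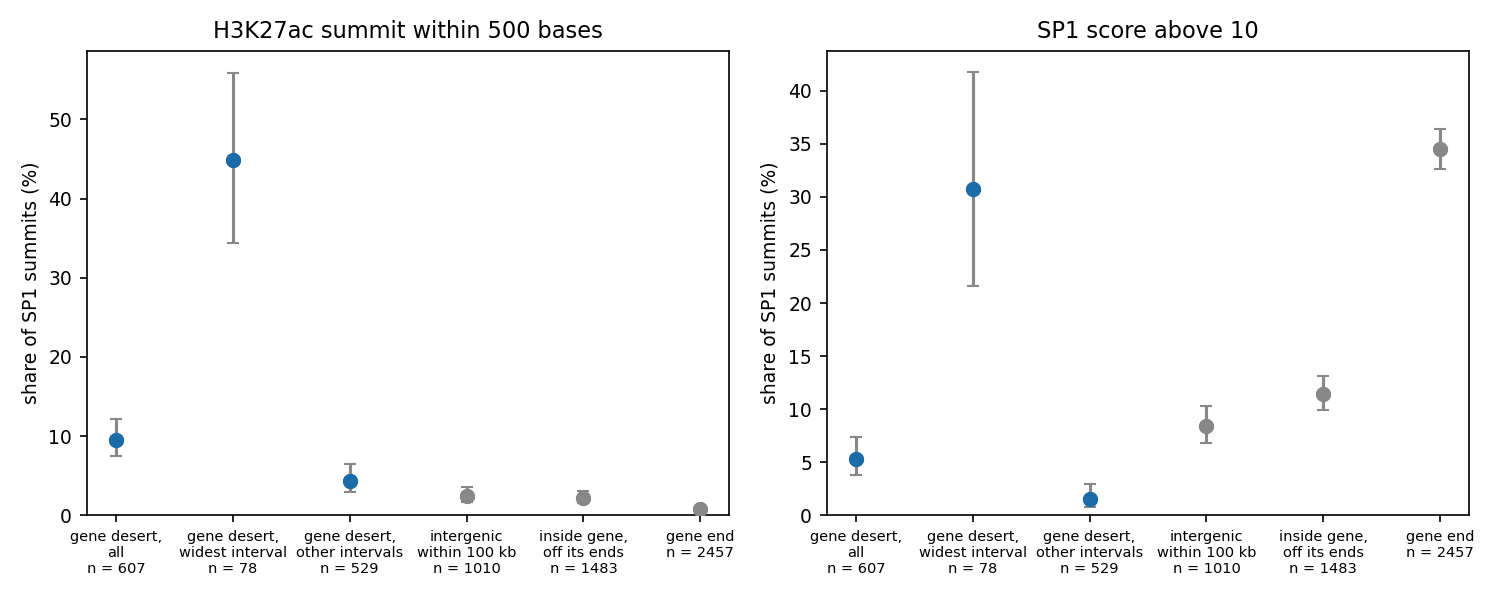
Share of SP1 summits with an H3K27ac summit within 500 bases (left) and with a score above 10 (right), in percent, for gene-desert summits (blue) and other positions (grey); bars are 95% Wilson intervals and n is the number of summits. The 78 summits in the widest gene-free intervals stand at 44.9% and 30.8%, and the 529 other gene-desert summits at 4.35% and 1.51%.

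The widest intervals differed among themselves. On chromosome 10, between ZNF37A and ZNF33B, 11 summits were called, 7 of them shared, with scores from 5.46 to 43.2. On chromosome 7, beside ZNF716, there were 10, with 5 shared and scores from 3.82 to 22.1. On chromosome 17, between KCNJ18, which encodes a potassium channel subunit, and WSB1, 9 summits had a median score of 37.3 and 6 were shared. On chromosome 20, between ZNF337 and LOC124904970, there were 8, with 6 shared. The intervals of chromosomes 12 (6 summits) and 3 (4 summits) had none shared, and their highest scores were 6.78 and 9.10. No gene-desert summit was called in the widest interval of chromosomes 9, 11, 13, 14, 15, 21 and X. How much of these intervals reads can be mapped to was not measured, so this lack cannot be set against the other intervals.

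A chromosome 21 interval of 1.53 Mb on the short arm, not the widest of its chromosome, had 7 summits with a median score of 12.6, and 5 were shared. They lay between LOC102723475 and LOC101927345, in the stretch that holds RNA45SN2. Beside those already named, the summit at 8420340 scored 14.7 inside CDC27P10, a transcribed pseudogene, and that at 9248074 scored 12.6.

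By the gene table used, the summits farthest from genes were the 3 called on the long arm of chromosome Y, between 56831138 and 56857451, with CDY1 as nearest gene at 31.2 Mb. Their scores were 11.2, 5.83 and 4.01, and the first was shared with an H3K27ac summit of score 5.99. They were the only SP1 summits called on this chromosome. The table places SPRY3, VAMP7 and IL9R, genes of a region that the ends of the long arms of X and Y share, on X alone. The distance therefore leaves out their copies on Y, and whether these 3 summits would meet the rule with those copies counted was not tested. Next came 2 summits on chromosome 22, at 11457566 and 11613993, with scores of 8.94 and 7.78. Their nearest H3K27ac summit was 458849 and 302422 bases away, and their nearest gene, at 4.07 and 3.91 Mb, was the olfactory receptor gene OR11H1.

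Distance itself went with score only at its far end. The median score was 4.95 at 100 to 200 kb (192 summits), 4.98 at 200 to 500 kb (230), 5.0 at 500 kb to 1 Mb (123), 5.38 at 1 to 2 Mb (40) and 9.62 beyond 2 Mb (22, the 3 on chromosome Y included). All 22 beyond 2 Mb lay in widest intervals. Outside those intervals the medians at the first 4 distances were 4.92, 4.86, 4.90 and 5.14. The shares with H3K27ac were 12 of 184 (6.52%), 9 of 210 (4.29%), 2 of 107 (1.87%) and 0 of 28. Among the 12 were the 3 near DEFB115 on chromosome 20 and 2 near LOC101927345 on the short arm of chromosome 21. The series is thus not free of sequence near centromeres, and a relation of these shares to distance was not tested.

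**Figure D4:**
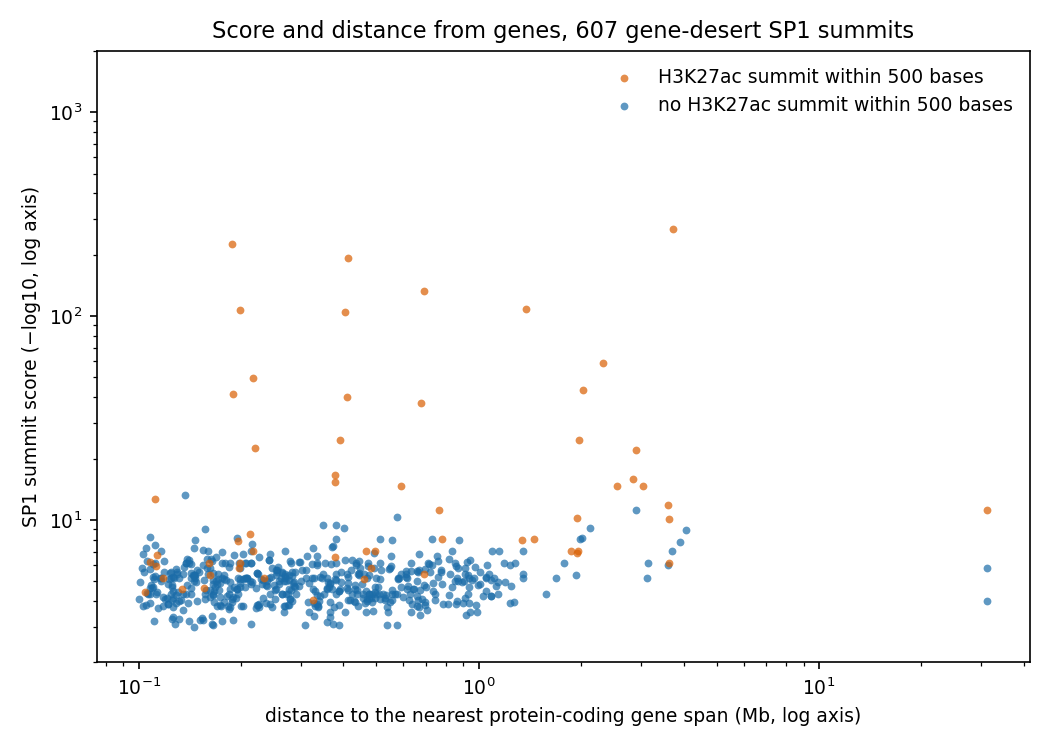
SP1 score (vertical, log axis) and distance to the nearest protein-coding gene span in Mb (horizontal, log axis) for the 607 gene-desert summits. Orange points, which have an H3K27ac summit within 500 bases, make up 29 of the 32 points above a score of 10, while blue points lie between 3.0 and 13.3 at every distance.

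Gene-desert summits were spread unevenly over the chromosomes. Each of 7 chromosomes held at least 5% of them, and together they held 378, or 62.3%, with 37.3% of the sequence that meets the rule. These 7 were picked by their counts, so a large joint share follows from the choice. Of the SP1 summits on each of the 7, between 15.2% (chromosome 10) and 24.8% (chromosome 8) were gene-desert summits, where 10.9% were over all chromosomes. This share was also high on some chromosomes outside the 7, such as 21 with 26.3%. Chromosome 8 had 82 (13.5%), chromosome 6 had 68 (11.2%), chromosome 2 had 67 (11.04%) and chromosome 5 had 53 (8.73%). Chromosome 3 had 42 (6.92%), chromosome 14 had 34 (5.60%) and chromosome 10 had 32 (5.27%). On chromosomes 2, 3, 5 and 14 none of them scored above 10, and on 6 and 8 only 1 each did.

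Counted by the length of desert sequence, chromosome 8 had the most SP1 summits, 18.2 per 10 Mb, followed by 17 (16.1), 6 (13.6) and 20 (12.1). Chromosomes 13 and X had the fewest, 0.528 and 0.188. H3K27ac gene-desert summits were at 20.2 per 10 Mb on chromosome 8, at 24.9 on 17, at 17.7 on 6 and at 18.1 on 20, and at 1.41 on 13 and 1.13 on X. Chromosome 19, the richest in SP1 summits with 628, had 1 in its deserts, which cover 10.6% of it. The 2 lists differed there, at 1.61 per 10 Mb for SP1 and 20.9 for H3K27ac (13 summits). Outside the widest intervals, SP1 gene-desert summits were at 19.3 per 10 Mb on chromosome 8, 15.7 on 17 and 13.5 on 6. Chromosomes 14 (12.9) and 22 (12.3) then stood above 20 (10.2), and 19 and Y had 0. The order thus depends on which sequence is counted. How many bases of each chromosome reads cannot be mapped to was not measured, so these densities give no firm ranking. The copy number of each chromosome in these cells was not measured here, so differences between chromosomes in summits and in copies cannot be told apart.

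**Figure D5:**
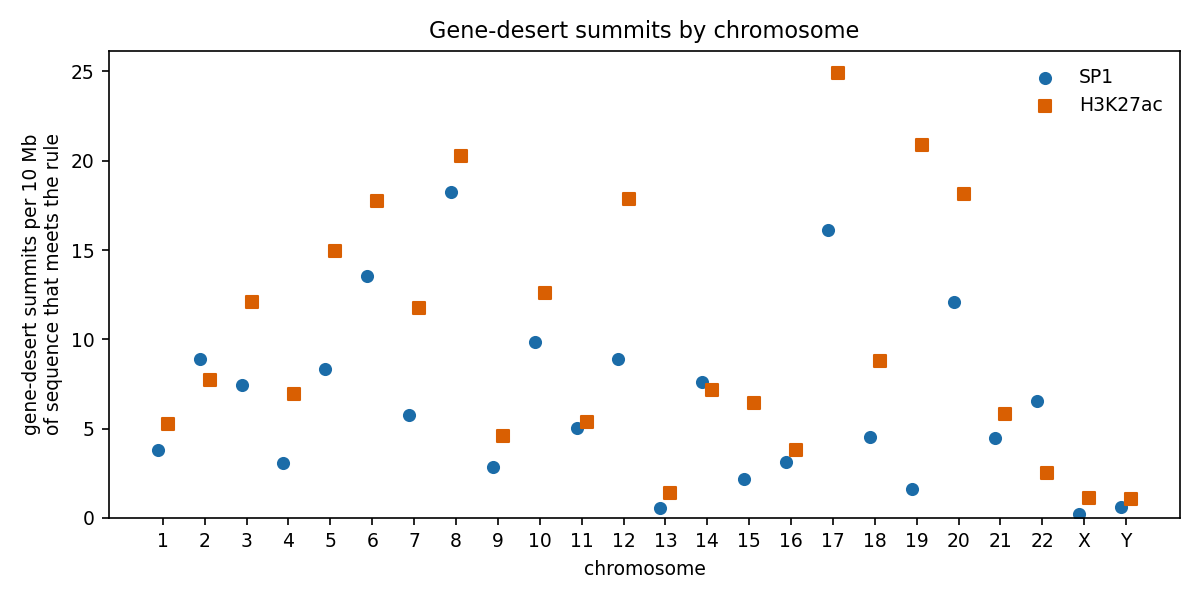
Gene-desert summits per 10 Mb of sequence that meets the rule (vertical axis) on each chromosome, for SP1 (blue circles) and H3K27ac (orange squares). Chromosome 8 has 18.2 for SP1 and 20.2 for H3K27ac, while 13 and X have at most 1.41 for either.

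On chromosome 8, which is 145 Mb long, the 82 summits lay in 36 gene-free intervals. Of the 82, 75 lay beyond position 50000000, a cut that was not planned. The share of all SP1 summits or of desert sequence beyond it was not counted, so no concentration can be read from this. The interval between SNX16, a sorting nexin gene, and RALYL, which encodes an RNA-binding protein, is 2.34 Mb long and held 11 summits, as many as the interval of chromosome 10. Their scores ran from 3.61 to 10.4 with a median of 5.24, and none was shared, although 9 H3K27ac gene-desert summits were called in the same interval. The interval between TOX and CA8 held 6 with 1 shared, and that between PEX2 and PKIA held 5 with none shared. Deserts on other chromosomes had like values. The 7 summits between FLRT2 and GALC on chromosome 14 scored from 3.83 to 6.39, the 7 between GBE1 and CADM2 on chromosome 3 from 3.94 to 7.08, and the 6 between IFTAP and LRRC4C on chromosome 11 from 4.21 to 6.01, with none shared in any of the 3. These intervals were chosen after their values were seen.

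Most summits stood alone. The 607 summits lay in 348 of 1682 gene-free intervals longer than 200 kb, and 231 of the 348 held 1 summit. Another gene-desert summit lay within 10 kb of 47, or 7.74% (5.87 to 10.1), where 18.8% of all SP1 summits had another SP1 summit that near. Deserts held 6.17 SP1 summits per 10 Mb against 23.6 in the rest, so fewer neighbours within a fixed distance are due there. Whether desert summits cluster more or less for their density was not tested. The 47 formed 20 groups, 15 of them pairs. Of the 47, 21 were shared with H3K27ac (44.7%, 31.4 to 58.8), against 37 of the 560 single ones (6.61%, 4.83 to 8.97).

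The 5 largest groups had 3 or 4 members. The 4 on chromosome 10 from 38527572 to 38529304 span 1733 bases, scored from 6.60 to 16.5, and 3 were shared. The 4 on chromosome 20 from 28860212 to 28884851 span 24.6 kb, scored from 5.35 to 10.2, and 3 were shared. The other three had 3 members each. All 3 near DEFB115 on chromosome 20 were shared, with scores from 5.80 to 41.5. In the lncRNA gene LOC102723769 on chromosome 22, 2 of 3 were shared, with scores from 6.0 to 11.8. The last, on chromosome 8 from 57205848 to 57210299, is in a desert about 212 kb from BPNT2, which encodes a phosphatase of nucleotide metabolism. Its scores ran from 7.07 to 8.56 and 2 of 3 were shared, so neighbouring and shared summits were also found away from the highest scores.

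Some deserts hold genes of other kinds. An lncRNA span held 139 of the summits away from its ends, or 22.9% (19.7 to 26.4), in 123 lncRNA genes, and 111 of these genes held 1. The share was 15.8% over all SP1 summits and 23.4% (20.9 to 26.1) in intergenic summits nearer to genes, whose interval overlaps that of the deserts. These 2 groups keep summits within 1000 bases of an lncRNA end, which the desert rule leaves out. It left out 13, of which 9 lay inside an lncRNA span. The median score of the 139 was 4.81, with a highest of 11.8, and 3 of the 139 were shared (2.16%, 0.737 to 6.15). The 468 outside lncRNA genes had a median of 5.15, and 55 were shared (11.8%, 9.14 to 14.99). The most in 1 lncRNA gene were 4, in LINC01414 on chromosome 8, which is 512 kb long, with a highest score of 5.26.

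A gene that is neither protein-coding nor lncRNA lay within 1000 bases of 24 summits, or 3.95% (2.67 to 5.82), close to the 4.36% of all SP1 summits. The share of each single kind over all SP1 summits was not counted, here and for the transfer RNA genes below. The counts by kind therefore describe the 24 and cannot be read as a trait of deserts. Pseudogenes accounted for 14 of the 24. Antigen receptor loci, which the annotation counts as no protein-coding gene although their segments are joined into antibody and T cell receptor genes in lymphocytes, accounted for 6. Inside IGH, the immunoglobulin heavy chain locus, lay 4 summits, with scores of 4.48, 6.63, 5.78 and 5.21. TRA, the T cell receptor alpha locus, held 1 with 4.03, and IGL, the immunoglobulin lambda locus, held 1 with 4.95. None of the 6 was shared with H3K27ac. The IGH summit with 6.63 was above the median of all SP1 summits, 6.17, and the other five were below it.

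Transfer RNA genes lay within 1000 bases of 3 summits, all on chromosome 6 between 27618128 and 28735197. The summits were 228 bases from TRT-CGT5-1 (score 7.30), 331 bases from TRS-CGA3-1 (4.35) and 232 bases from TRV-AAC6-1 (5.53). For TRS-CGA3-1 the nearest protein-coding gene was H2BC13, a histone gene, at 134617 bases. These places, the receptor loci and RNA45SN2 meet the rule but are not gene deserts in the usual sense.

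In the authors' list of SP1 regions, which are peaks joined and ranked by signal, 590 of the 607 summits lay in a region (97.2%, 95.6 to 98.2), where 44.1% of all SP1 summits did. The share was 80.9% in intergenic summits nearer to genes, 65.7% inside genes away from their ends and 2.73% at gene ends. The list thus leaves out most peaks at gene ends, where 67 of 2457 summits lay in a region. How its peaks were chosen is not stated. These shares and the ranks below therefore describe the list and cannot be read as a trait of the summits. Gene-desert summits were in 564 of 2356 regions, 545 of which consist of 1 peak, with a median length of 216 bases against 220 for the other regions. They were in 5 of the 10 best-ranked regions, 10 of the next 40, 10 of the next 50, and 25.7% of those ranked beyond 1000.

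All 5 of those best-ranked regions overlapped an H3K27ac region. They were on chromosome 16 at 46390385 to 46390914 (rank 3), on chromosome 17 at 26881239 to 26885551 (rank 5) and on chromosome 1 at 125183566 to 125183951 (rank 6). The other two were on chromosome 20, at 28860134 to 28884961 (rank 8) and at 31060359 to 31068877 (rank 9). The H3K27ac regions that they overlapped had ranks 2, 3, 1, 4 and 6 in their own list. Over all ranks, 43 of the 564 SP1 regions with a gene-desert summit overlapped an H3K27ac region (7.62%, 5.71 to 10.1), and 36 of the other 1792 did (2.01%, 1.45 to 2.77). Of the 348 with a rank beyond 1000, 5 did.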

How the data were processed

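The members and lists were chosen with earlier results of these data known. Summit lists hold 1 base and the peak caller's −log10 p-value or q-value per peak, as deposited. Region lists hold start, end, number of joined peaks and rank, as deposited (other values). Per the submitters' processing notes, coordinates are hg38; the notes also name cutadapt 2.5 and deepTools 3.4.1 without saying what each did. Aligner, peak caller, control and settings: not given in the sources used here.

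Gene spans came from a RefSeq table of GRCh38.p14 (20037 protein-coding and 18303 lncRNA genes on 24 chromosomes). A few entries are placed near chromosome starts, such as GSTT1 on chromosome 22, which bounds the widest interval there. Distances, overlaps and Wilson intervals were computed with pandas 2.3.3 and scipy 1.17.1 and tested on simulated positions. No genome sequence was used here. Named summits are the 20 highest, the 10 with the highest H3K27ac score (all among these 20), the 5 farthest, those at the threshold, the 5 best-ranked regions and the 5 largest groups. Alternatives covered distances, windows, scores and chromosomes.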

Additional observations from a re-analysis of the deposited data

How the results depend on the processing

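No paired analysis was possible because each antibody had a single library. Of 78 alternative values for 8 results, 52 stayed within the main interval (for the median score, within the quartiles) and 26 moved. The share in SP1 regions stayed within it under every alternative tried. So did the median score within the quartiles, but these give the spread of single summits and not the uncertainty of a median. With scores above 5 the median was 5.87, against 5.06 in the main setting. The share of gene-desert summits in the SP1 list was 14.1% with a distance of 50 kb, 7.45% with 200 kb, 7.54% outside lncRNA spans and over 10000 bases from their ends, 8.09% with scores above 5 and 10.02% without chromosome 8. Outside lncRNA spans and over 10000 bases from their ends, 12.6% had an H3K27ac summit within 500 bases and 7.38% a score above 10. With scores above 5, 16.9% had an H3K27ac summit within 500 bases, 16.25% lay in an H3K27ac region, 10% scored above 10 (32 of 320) and 10.3% had another such summit within 10 kb. That share was 1.98% within 1 kb and 25.7% within 100 kb. A gene of another kind was near 2.65% of summits with 200 kb, 8.24% within 5000 bases, and 2.31% when only the inside of its span counted. Distances and windows move these shares by construction.

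2 settings were chosen after seeing the data. Without the widest interval of each chromosome, gene-desert summits were 9.64% of the list, 4.35% had an H3K27ac summit within 500 bases, 3.403% lay in an H3K27ac region, 1.51% scored above 10 and 4.91% had another within 10 kb. Without chromosome 21 as well, these were 9.52%, 3.47%, 2.70%, 0.771% and 4.62%. Neither setting takes out all sequence near centromeres, and for neither was the cause tested. Reads per library are unknown, and with them what depth limits.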

Other observations

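Scores of gene-desert summits took few values. The 607 summits had 251 different scores, and 425 of them (70.0%) had exactly the score of at least 9 other SP1 summits, against 1712 of the other 4963 (34.5%). The commonest scores were 4.34, held by 32 gene-desert summits and by 101 of all SP1 summits, 5.21 (30 and 116) and 6.13 (21 and 93). Summits with one such score have no order among themselves.

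H3K27ac gene-desert summits had a like division. In the widest gene-free intervals, 27 of 104 (26.0%, 18.5 to 35.1) scored above 10, and in other deserts 14 of 766 did (1.83%, 1.09 to 3.04). Of the 41 above 10 in all, 31 had an SP1 summit within 500 bases. An lncRNA span held 216 of the 870 (24.8%, 22.1 to 27.8), where the share was 16.7% over all H3K27ac summits and 20.3% (17.8 to 23.1) in intergenic ones nearer to genes. Here too only the desert rule leaves out summits within 1000 bases of an lncRNA end, 23 in this list, 19 of them inside a span.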
